A study of Mus musculus with 21 samples.

Results

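Gene expression was compared between FVF+ and FVF- cells of the mouse embryonic pancreas at E15.5, with 3 FVF+ arrays and 3 FVF- arrays, 6 of the 21 arrays of a series that took both fractions daily from E12.5 to E15.5. FVF joins Foxa2, the forkhead factor of endodermal epithelia, to the fluorescent protein Venus, and pancreata were sorted on it by flow cytometry. The arrays were taken by the sort and the day in their labels, and all 19296 named genes were tested. The arrays of the earlier days, used here only as the setting for E15.5, were 3 FVF+ and 2 FVF- at E12.5, 2 and 2 at E13.5, and 3 and 3 at E14.5. All samples came from mice of a mixed C57-Bl6/SV129/CD1 background. The zygosity of the fusion allele and the pooling of embryos are not given in the sources used here. Each fraction is a mixture: FVF+ holds the cells sorted as positive for the fusion, and FVF- holds those sorted as negative. How completely the sort parted the cell types was not tested. Replicates are called biological, and whether they were separate embryos, litters or sorts is not given; the p-values therefore cover only the spread among the arrays, which may be technical.

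The pancreas grows as a branching endodermal epithelium inside mesenchyme. At about this stage, in the secondary transition, cells at the tips of the branches turn into acinar cells that make digestive enzymes, while the trunk forms ducts and, through a short-lived state marked by Neurog3, endocrine cells that make hormones. Mesenchyme, mesothelium, vessels, blood cells and nerves surround the epithelium and supply growth factors to it.

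Values are log2 robust multi-array average (RMA) signals, on which 1 unit is a 2-fold difference and no level stands for zero. Differences are FVF+ minus FVF- in log2 units, ± the moderated standard error (SE), with 3 arrays in each group, and adjusted p-values are from limma over all genes. The Foxa2 transcript was examined first as a check of the labels. It read 10.87, 11.37 and 11.02 in FVF+, against 7.98, 8.56 and 8.24 in FVF-. All 3 FVF+ arrays lay above all 3 FVF- arrays, and the difference was 2.83 ± 0.18 (adjusted p = 5.2e-10). It lay between 2.69 and 2.98 when any 1 array was left out.

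FVF+ cells differed from FVF- cells at a large share of genes. At an adjusted p under 0.05, 8478 genes were called, 43.9% of those tested, of which 4709 (24.4%) were higher and 3769 (19.5%) were lower in FVF+. Of these, 2599 differed at least 2-fold, 1081 (5.6%) of them higher and 1518 (7.87%) lower. Without overlap between the arrays of the 2 fractions, 5762 genes (29.9%) stood above and 4420 (22.9%) below in FVF+. These shares are the background for every count that follows. The median difference over all genes was 0.07 and the median size of a difference was 0.25, against a median SD between replicates of 0.12 in FVF+ and 0.11 in FVF-. Arrays of the same fraction had correlations across genes of 0.992 to 0.994, and pairs from different fractions 0.905 to 0.916. In bulk RNA of sorted cells, fewer cells of a type and less RNA per cell cannot be told apart.

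The highest positive differences belonged to islet and epithelial genes. Scgn, which encodes the calcium sensor secretagogin of endocrine cells, read 11.87, 11.75 and 12.01 in FVF+, against 6.02, 7.28 and 6.57 in FVF- (5.25 ± 0.31). Others of the 15 highest were the peptide hormone genes Iapp, Sst and Pyy, the granule genes Chgb and Pcsk1, the transcription factor genes Rfx6, Neurog3 and Neurod1, the epithelial genes Esrp1 and Muc1, and Cltrn, which encodes collectrin, a membrane protein of beta cells and kidney tubules (4.79 ± 0.30). The steroid and xenobiotic enzyme genes Akr1c19 (4.48 ± 0.30) and Ugt2b34 (4.39 ± 0.39) were also among them. Naaladl2, a gene related to glutamate carboxypeptidases, had the highest difference of all but also a wide error, 5.52 ± 0.89, with 11.7, 10.84 and 10.83 in FVF+ and 5.28, 6.22 and 5.3 in FVF-. At the other end stood Cpa3, the carboxypeptidase of mast cells (-5.35 ± 0.37), and the matrix proteoglycan genes Ogn (-5.19 ± 0.29) and Aspn (-5.12 ± 0.26). Srgn, the proteoglycan core of blood cell granules, read 7.36, 7.56 and 7.21 in FVF+, against 12.42, 11.88 and 12.22 in FVF-. Pcdh18 (-4.45 ± 0.37), a protocadherin gene, Agtr2 (-4.45 ± 0.34), which encodes the type 2 angiotensin receptor, Ccdc80 (-4.43 ± 0.20), a matrix protein gene, Lrrc17 (-4.28 ± 0.26) and Epha3 (-4.14 ± 0.30), an ephrin receptor gene, completed the 15 lowest with Fabp7, Lum, Lox, Lyz2, Cxcl13 and Postn, described with their groups.

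**Figure D1:**
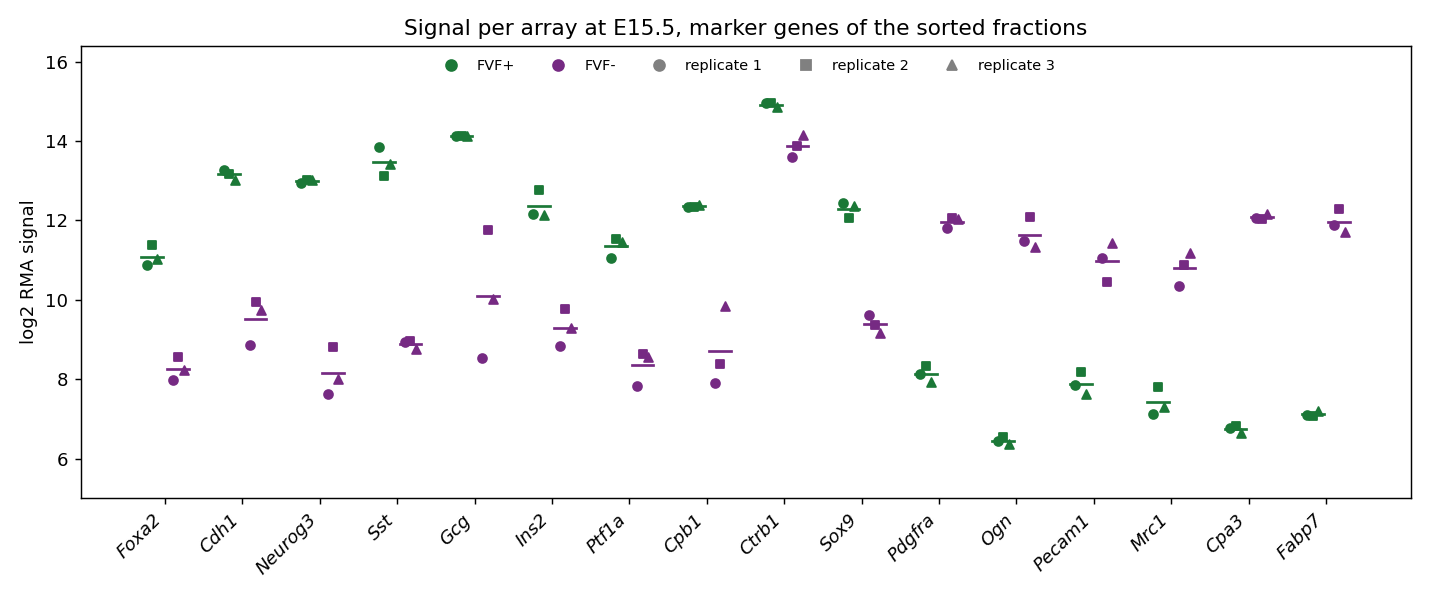
Log2 RMA signal (y axis) of 16 marker genes (x axis) on each E15.5 array, with FVF+ arrays in green at the left and FVF- arrays in purple at the right of each gene, symbols for replicate number and bars for group means. Foxa2, epithelial, endocrine and acinar genes stood above in FVF+ and stromal, vascular, blood and glial genes below, while Gcg and Cpb1 varied among FVF- arrays and Ctrb1 was high in both fractions.

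MicroRNA genes were described from the array's probe sets for their loci, which report transcripts over the gene and not the mature product. Of 38 measured microRNA genes, 13 were higher, 6 were lower and 19 were not called, with a median difference of 0.10, and 2 in each direction differed at least 2-fold. The higher calls numbered 9 to 11 when each E15.5 array was left out in turn. The higher ones were led by the miR-200 family, whose members are known to hold down Zeb1 and Zeb2 in epithelia. Their mature sequences, from RefSeq on GRCm38.p6, are shown with the seed (bases 2 to 8) in capitals because the 4 members measured here fall by it into pairs of shared seed. Mir429, a further member of the family, was not analysed here.
miR-200b-3p: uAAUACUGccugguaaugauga
miR-200c-3p: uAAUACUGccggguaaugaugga
miR-200a-3p: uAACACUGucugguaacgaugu
miR-141-3p: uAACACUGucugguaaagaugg
miR-7a-5p: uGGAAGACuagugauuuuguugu
miR-218-5p: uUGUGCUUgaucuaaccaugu
These products lie at chr4:156055685-156055706 (minus strand) for Mir200b, chr6:124718324-124718346 (minus) for Mir200c, chr4:156054911-156054932 (minus) for Mir200a, chr6:124717917-124717938 (minus) for Mir141, chr7:78888295-78888317 (plus) for Mir7-2 and chr5:48223966-48223986 (plus) for Mir218-1. Of the 38 measured genes, 36 were in the sequence table.

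Mir200b read 7.97, 9.53 and 8.79 in FVF+, against 5.83, 6.23 and 6.24 in FVF- (2.66 ± 0.31, adjusted p = 1.2e-06). Mir200c, which carries the same seed from another chromosome, differed by 0.99 ± 0.14, and the other seed's Mir200a and Mir141 by 0.79 ± 0.17 and 0.46 ± 0.15. So all 4 measured genes of the family were higher, in both seed groups and at both loci, with replicate 1 the lowest FVF+ array for each of them. Mir375, a microRNA gene of islet cells, read 9.55, 11.01 and 10.6 in FVF+, against 8.99, 9.17 and 8.86 in FVF-, and Mir7-2, a source of the islet miR-7a, differed by 0.98 ± 0.16. Its copy Mir7-1 did not pass the test (0.18 ± 0.23). Lower in FVF+ were the smooth muscle microRNA gene Mir145a (-2.17 ± 0.23) and Mir218-1, which lies within the Slit2 gene (-2.12 ± 0.40). Mir218-1 read 7.1, 7.41 and 7.58 in FVF+, against 8.53, 10.15 and 9.78 in FVF-, whereas its paralog Mir218-2 differed by 0.03 ± 0.19 and was not called. The 4 other lower calls (Mir335, Mir126a, Mir142 and Mir10b) lay between -0.55 and -0.25 and were each lost when some single array was left out. Mir141, Mir7-1 and Mir218-2 were named after their values were seen.

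The 7 measured islet hormone genes were all higher in FVF+, by 3.06 to 5.16. Gcg, the glucagon gene, read 14.13, 14.12 and 14.13 in FVF+ and 8.53, 11.76 and 10.01 in FVF- (4.03 ± 0.57, adjusted p = 1.0e-05). Its level was even across FVF+ arrays and spread widely over FVF- arrays, with replicate 2 the highest. Iapp, which encodes the beta-cell peptide amylin, showed the same order, with 13.63, 13.54 and 13.78 in FVF+ and 7.49, 9.49 and 8.49 in FVF- (5.16 ± 0.35). Somatostatin, the delta-cell hormone, is encoded by Sst, which read 13.86, 13.12 and 13.43 in FVF+ and 8.94, 8.96 and 8.75 in FVF- (4.59 ± 0.24). Unlike Gcg and Iapp, Sst was level across the FVF- arrays. Peptide YY (Pyy, 4.34 ± 0.26), ghrelin (Ghrl, 4.18 ± 0.23) and pancreatic polypeptide (Ppy, 3.74 ± 0.25) lay in between. Ins2, the insulin gene measured here, had the lowest of the 7 differences, 3.06 ± 0.23, with 12.16, 12.76 and 12.15 in FVF+ and 8.83, 9.77 and 9.28 in FVF-. Averaged over the 7 genes, the signal was 13.13, 13.05 and 13.13 in FVF+ and 8.45, 9.53 and 8.86 in FVF-, so the fractions did not overlap but FVF- replicate 2 stood highest of its group. Foxa2 was highest in FVF- replicate 2 as well, at 8.56, and its part in these values was not tested.

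Genes that pack and process hormones followed the hormones. Of 23 measured secretory granule genes, 21 were higher, 1 was lower and 1 was not called, with a median of 1.98. Pcsk1, the prohormone convertase, read 11.2, 11.28 and 11.36 in FVF+, against 7.03, 7.07 and 6.98 in FVF- (4.25 ± 0.20, adjusted p = 3.1e-11). Slc30a8, which brings zinc into insulin granules, read 10.9, 10.19 and 10.85 in FVF+, against 6.56, 6.51 and 6.69 in FVF- (4.06 ± 0.17). Both were at a constant low level in FVF- and well above it in FVF+. The granins Chgb (4.52 ± 0.35) and Chga (4.25 ± 0.26) and the thyroxine carrier Ttr (3.94 ± 0.43) were also among the 6 highest of the list. Slc18a2, the vesicular monoamine transporter, was the exception: 7.84, 7.66 and 8.05 in FVF+, against 9.24, 9.03 and 9.01 in FVF- (-1.24 ± 0.13). Vgf, a neuroendocrine granule protein gene, did not pass (0.26 ± 0.14, adjusted p = 0.14).

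Of 10 measured genes listed for beta-cell glucose sensing and related functions, 9 were higher and 1 was not called, with a median of 2.04. Abcc8 and Kcnj11, the subunits of the ATP-sensitive potassium channel, differed by 4.16 ± 0.31 and 1.63 ± 0.14. The glucose transporter gene Slc2a2 differed by 2.55 ± 0.23, the incretin receptor genes Glp1r and Gipr by 2.28 ± 0.23 and 1.95 ± 0.19, the fatty acid receptor gene Ffar1 by 1.82 ± 0.20, and G6pc2, a glucose-6-phosphatase of islets, by 2.13 ± 0.14. Ero1b, an oxidase for disulfide bonds in proinsulin, differed by 3.18 ± 0.16. Pcx, which encodes pyruvate carboxylase, read 10.79, 10.98 and 10.8 in FVF+, against 9.79, 9.91 and 9.6 in FVF- (1.09 ± 0.13). The calcium channel gene Cacna1d was not called (0.25 ± 0.13, adjusted p = 0.12).

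Among 21 endocrine transcription factor genes, 19 were higher, Runx1t1 was lower and Peg10 was not called, with a median of 1.35. Neurog3, which starts endocrine differentiation, read 12.95, 13.02 and 13.01 in FVF+, against 7.63, 8.8 and 8.0 in FVF- (4.85 ± 0.35). Rfx6, which acts after Neurog3 in islet formation, read 11.37, 10.99 and 11.32 in FVF+, against 6.23, 6.29 and 5.92 in FVF- (5.08 ± 0.33). For both genes the fractions lay far apart, and replicate 2 was the highest FVF- array for Neurog3, as for Gcg. Neurod1 (4.36 ± 0.26), Pax6 (4.15 ± 0.32), Nkx2-2 (4.13 ± 0.35) and Pax4 (3.68 ± 0.33), further islet factors, completed the 6 highest. Runx1t1, a corepressor, differed by -0.57 ± 0.17 (adjusted p = 0.012). Its call was lost on leaving out 1 array in 2 of 6 cases, with adjusted p-values of 0.0578 and 0.0739. The imprinted gene Peg10, used as a marker of early endocrine states, was strong and even in both fractions, with 13.68, 13.92 and 13.57 in FVF+ and 13.63, 13.9 and 13.78 in FVF- (adjusted p = 0.81).

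All 27 measured genes for acinar enzymes and other acinar secretions were higher in FVF+ (median 2.82). These calls numbered 25 to 26 when each E15.5 array was left out in turn. The genes differed in how far the fractions stood apart. Spink1, the trypsin inhibitor, read 11.34, 11.38 and 11.68 in FVF+, against 6.71, 7.84 and 7.74 in FVF- (4.04 ± 0.40), and Reg1, the regenerating protein gene, differed by 3.77 ± 0.19. Cpb1, carboxypeptidase B, read 12.33, 12.35 and 12.4 in FVF+, against 7.91, 8.37 and 9.84 in FVF- (3.65 ± 0.32). Its FVF+ arrays agreed closely and FVF- replicate 3 was the highest of its group. Rnase1, the pancreatic ribonuclease gene, read 12.69, 12.09 and 12.51 in FVF+, against 8.42, 8.67 and 9.85 in FVF-, with the same array highest in FVF-. Sycn, a zymogen granule protein gene (3.68 ± 0.28), and the trypsinogen gene Prss3 (3.71 ± 0.19) were of similar size. Prss3 belongs to a family of near-identical trypsinogen genes, as do Prss2, Try4, Try5 and Try10, and probe sets may not separate them.

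A second set of enzyme genes was strong in both fractions. Ctrb1, the chymotrypsinogen gene, read 14.96, 14.95 and 14.86 in FVF+ and 13.6, 13.87 and 14.16 in FVF-, a difference of 1.05 ± 0.39 (adjusted p = 0.037). The arrays did not overlap, but the call was lost without any 1 of 5 of the 6 arrays, with adjusted p-values of 0.0711 to 0.118. Clps, the colipase gene, read 14.87, 14.95 and 14.78 in FVF+ and 12.8, 13.23 and 13.7 in FVF- (1.62 ± 0.28). Pnliprp1, a lipase-related gene, read 14.54, 14.63 and 14.44 in FVF+ and 12.05, 12.53 and 13.12 in FVF- (1.97 ± 0.43). The FVF+ values of these genes stood near 15.31, the highest value in the whole table, and replicate 3 was the highest FVF- array for each. Cpa1, carboxypeptidase A1, differed by 1.21 ± 0.23 and was named after its values were seen. Averaged over the 27 genes, the signal was 11.29, 11.14 and 11.28 in FVF+ and 8.7, 8.76 and 9.36 in FVF-. The scale has no zero, so none of these genes can be said to be absent from a fraction.

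Of 8 acinar transcription factor genes, 7 were higher and 1 was lower, with a median of 2.73. Bhlha15, which shapes the acinar secretory machinery, read 12.22, 12.52 and 12.13 in FVF+, against 7.93, 8.82 and 9.11 in FVF- (3.67 ± 0.27). Rbpjl (3.41 ± 0.52) and Ptf1a (3.01 ± 0.29), partners in the complex that drives enzyme genes, Nr5a2 (3.33 ± 0.50), Mecom (2.45 ± 0.28) and Gata4 (2.28 ± 0.15) were higher too. Xbp1, a factor of the unfolded protein response, had a small difference between strong signals, 12.88, 13.24 and 13.09 in FVF+ and 12.39, 12.64 and 12.51 in FVF- (0.56 ± 0.12). Creb3l1, a membrane-bound factor of the secretory pathway, was lower in FVF+ (-0.77 ± 0.14).

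Genes of protein folding and transport in the endoplasmic reticulum (ER) were modestly higher. Of 30, 23 were higher, none was lower and 7 were not called, with a median of 0.74, and 11 differed at least 2-fold. Pdia2, the protein disulfide isomerase of pancreas, stood apart from the rest, with 12.26, 11.73 and 12.22 in FVF+ against 8.0, 8.07 and 8.75 in FVF- (3.8 ± 0.34). Next came Ern1, the sensor that splices Xbp1 (1.73 ± 0.15), the chaperone genes Dnajc3 (1.44 ± 0.19) and Sdf2l1 (1.34 ± 0.17), Sel1l, of ER-associated degradation (1.27 ± 0.09), and Creld2 (1.25 ± 0.12). Sel1l read 12.54, 12.37 and 12.53 in FVF+, against 11.07, 11.2 and 11.36 in FVF-. Hsp90b1 (0.25 ± 0.12), Spcs1 (0.23 ± 0.11) and Ddit3 (-0.22 ± 0.12) did not pass, and Hsp90b1 and Spcs1 did once each array was centred on its median (adjusted p = 0.0355 and 0.0234).

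Promoters of this list were searched for the ER stress response elements ERSE (CCAAT and CCACG with 9 bases between them) and ERSE-II (ATTGG and CCACG with 1 base between them), the elements known to be bound by Atf6 and Xbp1 with NF-Y, on both strands from 250 bases before to 50 bases after the RefSeq start. ERSE was in 39 of 32851 promoters of all genes (0.119%) and in 8 of the 23 listed genes with a promoter sequence (34.8%), and ERSE-II in 12 promoters (0.0365%) and 2 of the 23 (8.7%). No promoter held both. The list was assembled around this response, so its share of elements is a description of the list. The elements of genes that were higher are shown, except that of Dnajb11, which lies after the RefSeq start, in capitals with 15 flanking bases, on GRCm38.p6 and in the direction of the gene.
Hspa5: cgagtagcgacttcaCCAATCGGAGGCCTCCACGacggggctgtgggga
Pdia6: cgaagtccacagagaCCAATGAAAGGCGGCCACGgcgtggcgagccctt
Dnajc3: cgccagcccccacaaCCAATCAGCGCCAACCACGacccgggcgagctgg
Canx: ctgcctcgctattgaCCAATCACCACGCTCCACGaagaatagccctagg
Creld2: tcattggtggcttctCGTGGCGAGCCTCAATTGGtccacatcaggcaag
Ero1b: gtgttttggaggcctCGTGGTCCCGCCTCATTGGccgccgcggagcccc
Herpud1: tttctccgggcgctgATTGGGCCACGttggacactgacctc
They lie at chr2:34772010-34772058 (plus strand), chr12:17266476-17266524 (plus), chr14:118937812-118937860 (plus), chr11:50325785-50325833 (minus), chr15:88819505-88819553 (plus), chr13:12565667-12565715 (plus) and chr8:94386362-94386402 (plus), in the order shown. In Creld2 and Ero1b the element reads on the opposite strand. Ero1b belongs to the glucose sensing list.

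Beside these elements the expression values were uneven. Creld2 read 12.27, 12.11 and 12.24 in FVF+, against 11.04, 10.83 and 10.99 in FVF-. Herpud1 read 12.97, 13.07 and 13.08 in FVF+, against 11.8, 11.78 and 11.87 in FVF- (1.22 ± 0.15). In contrast Hspa5, the chaperone BiP, was strong in both, with 13.85, 13.62 and 13.75 in FVF+ and 13.26, 13.27 and 13.42 in FVF- (0.42 ± 0.10). Of the 8 listed genes with ERSE, Hspa5, Pdia6, Dnajc3, Canx and Creld2 were higher, by 0.31 to 1.44, and Hsp90b1, Calr and Syvn1 were not called. Both genes with ERSE-II, Herpud1 and Dnajb11, were higher. The matches describe letters in these windows and not binding. Herpud1, Hspa5, Pdia6, Canx, Dnajb11, Calr and Syvn1 were named after their values were seen.

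Transcription factor genes of pancreatic progenitors were mostly higher in FVF+. Of 17, 14 were higher, none was lower and 3 were not called, with a median of 2.28. Pdx1, needed for the pancreas to form, read 11.43, 11.78 and 11.3 in FVF+, against 7.69, 8.12 and 7.96 in FVF- (3.58 ± 0.26, adjusted p = 2.8e-09). Prox1 (3.49 ± 0.37), Foxa3 (3.46 ± 0.16), Onecut1 (3.39 ± 0.54) and Hnf4a (2.92 ± 0.17) were of similar size. The 3 genes not called were strong or even in both fractions: Gata6 read 12.18, 12.2 and 11.92 in FVF+ and 12.16, 12.25 and 12.05 in FVF- (adjusted p = 0.67), Hes1 differed by -0.04 ± 0.13 and Onecut3 by 0.22 ± 0.13.

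Ductal genes were divided. Of 17, 12 were higher, 2 were lower and 3 were not called, with a median of 1.19. Muc1, an apical mucin, read 12.72, 13.12 and 12.78 in FVF+, against 7.68, 9.02 and 9.04 in FVF- (4.29 ± 0.38). Ambp (4.19 ± 0.51), Pkhd1, the fibrocystin gene of cilia (3.01 ± 0.36), Sox9, the factor that maintains progenitors and ducts (2.91 ± 0.24), the claudin gene Cldn10 (2.72 ± 0.14) and Anxa4 (2.57 ± 0.11) followed. The duct keratin gene Krt19 was strong in both fractions and did not pass (10.73, 10.87 and 10.72 in FVF+, 11.4, 10.97 and 11.37 in FVF-, adjusted p = 0.13), and Krt19 is also a mesothelial gene. Fitted to the E15.5 arrays alone, its adjusted p was 0.0112. Car2, a carbonic anhydrase gene (-1.83 ± 0.22), and the water channel gene Aqp1 (-1.52 ± 0.21) were lower, and both are also made by red blood cells. Cftr, the chloride channel of ducts, was dim in both and not called (0.12 ± 0.10).

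All 30 epithelial genes were higher, by 0.58 to 4.41, with a median of 3.09. Esrp1, which directs epithelial splicing, read 11.68, 12.08 and 11.63 in FVF+, against 6.96, 7.71 and 7.5 in FVF- (4.41 ± 0.34). Cldn6 (4.02 ± 0.36), a claudin of embryonic epithelia, Epcam (3.86 ± 0.33), an adhesion gene, Ehf (3.68 ± 0.19), an Ets factor, Ap1m2 (3.65 ± 0.26), a sorting adaptor of polarised cells, and the desmosomal cadherin Dsg2 (3.65 ± 0.33) came next. Averaged over the list the signal was 11.81, 11.85 and 11.75 in FVF+ and 8.78, 9.11 and 8.99 in FVF-, with no overlap and a far smaller spread between FVF- arrays than for the hormones.

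**Figure D2:**
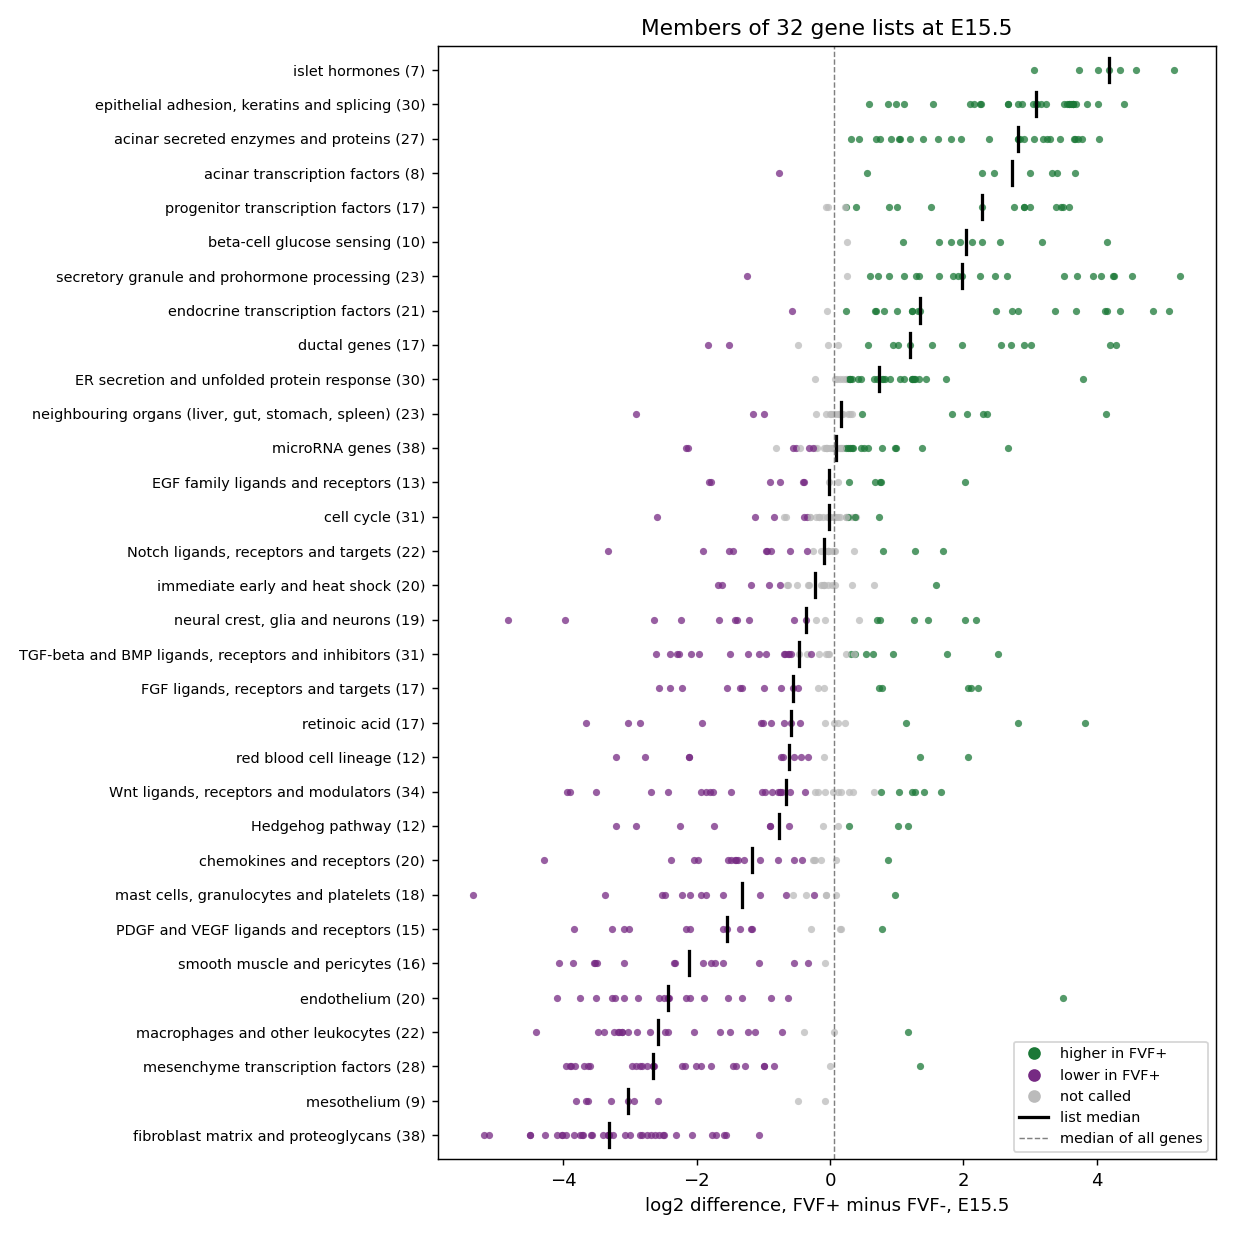
Log2 difference at E15.5, FVF+ minus FVF- (x axis), of every measured member of 32 gene lists (y axis, number measured in brackets), green where higher in FVF+, purple where lower and grey where not called, with black bars for list medians and a dashed line at the median of all genes, 0.07. Hormone, epithelial and acinar lists lie to the right (medians 4.18, 3.09 and 2.82) and fibroblast matrix to the left (-3.31), while cell cycle genes centre on -0.02.

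FVF- cells carried the genes of pancreatic mesenchyme. Of 28 mesenchymal transcription factor genes, 26 were lower in FVF+, with a median of -2.65. Prrx1, a homeobox gene of limb and organ mesenchyme, read 7.84, 8.1 and 8.27 in FVF+, against 11.99, 12.04 and 12.04 in FVF- (-3.95 ± 0.29). Ebf1 (-3.91 ± 0.17), Osr1 (-3.88 ± 0.40), Zeb2 (-3.82 ± 0.34), Tcf21 (-3.69 ± 0.24) and Nr2f2 (-3.63 ± 0.31), factors of mesoderm and of mesenchymal cell state, followed. Foxf2 was not called (-0.01 ± 0.08). Isl1 acts in early mesenchyme and in islets, and it was higher in FVF+ at E15.5, with 11.66, 11.04 and 11.63, against 9.94, 10.24 and 10.09 in FVF- (1.35 ± 0.22).

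All 38 measured genes of fibroblast matrix were at least 2-fold lower in FVF+, with a median of -3.31. Ogn, the gene of the small proteoglycan osteoglycin, read 6.45, 6.53 and 6.37 in FVF+, against 11.49, 12.1 and 11.32 in FVF- (adjusted p = 1.3e-10). Its relatives Aspn and Lum (-4.51 ± 0.32), the collagen cross-linking enzyme Lox (-4.50 ± 0.32), Postn, the periostin gene (-4.28 ± 0.30), and the collagen receptor Ddr2 (-4.10 ± 0.28) completed the 6 lowest. Lum read 7.33, 8.14 and 8.05 in FVF+, against 12.16, 12.49 and 12.39 in FVF-, so no array of either fraction came near the other. Averaged over the list, the signal was 8.95, 9.18 and 8.95 in FVF+ and 12.28, 12.19 and 12.19 in FVF-.

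Of 16 smooth muscle and pericyte genes, 15 were lower and 1, Myocd, was not called (-0.08 ± 0.11), with a median of -2.12. Rgs5, a pericyte signalling regulator (-4.07 ± 0.41), the intermediate filament gene Des (-3.85 ± 0.28), the potassium channel subunits Abcc9 (-3.54 ± 0.29) and Kcnj8 (-3.50 ± 0.25), the actin gene Acta2 (-3.53 ± 0.32) and the receptor Pdgfrb (-3.10 ± 0.21) led them. Mesothelium, the sheet that covers the organ, showed in 7 of 9 genes lower in FVF+, with a median of -3.03. Upk3b (-3.81 ± 0.25), Aldh1a2, which makes retinoic acid (-3.65 ± 0.20), Lrrn4 (-3.64 ± 0.23), Upk1b (-3.29 ± 0.36), Wt1, the Wilms tumour factor (-3.03 ± 0.24), Gpm6a (-2.94 ± 0.20) and Bnc1 (-2.57 ± 0.19) made up the 7, and Krt19 and Msln (-0.07 ± 0.09) were not called.

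Endothelial genes were lower in FVF+ for 19 of 20, with a median of -2.44. Emcn, the endomucin gene, read 7.14, 8.23 and 7.1 in FVF+, against 11.48, 11.21 and 12.08 in FVF- (-4.10 ± 0.41). Cdh5, the endothelial cadherin, read 9.06, 9.68 and 8.17 in FVF+, against 12.51, 12.14 and 12.79 in FVF- (-3.51 ± 0.45). In both, replicate 2 was the highest FVF+ and the lowest FVF- array. The list as a whole had the same order, averaging 8.43, 8.68 and 8.32 in FVF+ and 10.68, 10.28 and 10.95 in FVF-. FVF- replicate 2 was thus lowest for vessel genes and highest for hormone genes, and the part this plays in either difference was not tested. Eng (-3.75 ± 0.37), Kdr (-3.27 ± 0.32), Plvap (-3.23 ± 0.31) and Pecam1 (-3.10 ± 0.34) followed, and Prox1, a lymphatic endothelial gene as well as a pancreatic progenitor gene, was the only member that was higher.

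**Figure D3:**
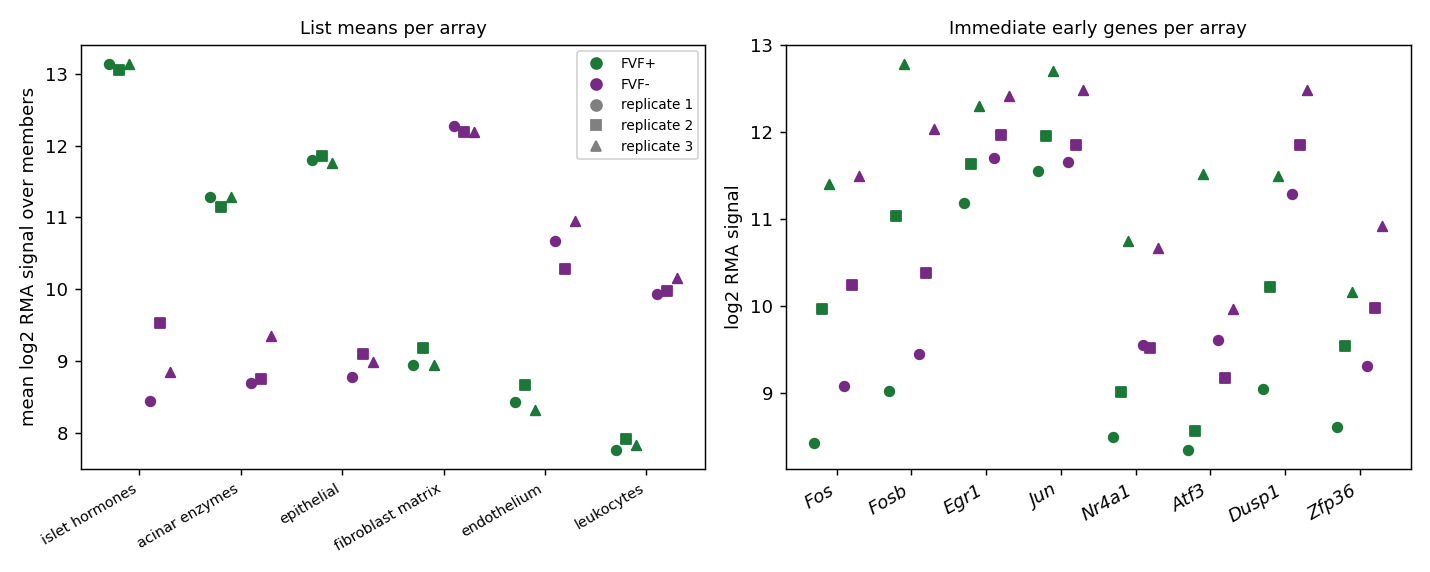
Left, mean log2 RMA signal over the members of 6 gene lists (y axis) on each E15.5 array, FVF+ in green at the left and FVF- in purple at the right of each list, with symbols for replicate number. Right, log2 RMA signal of 8 immediate early genes on the same arrays. The list means do not overlap between fractions (hormones 13.05 to 13.13 in FVF+ and 8.45 to 9.53 in FVF-), whereas immediate early genes such as Fos differ by replicate number in both fractions.

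Blood cell genes were lower in FVF+ as well. Of 22 macrophage and leukocyte genes, 19 were lower, with a median of -2.58. Lyz2, the lysozyme gene of myeloid cells, read 7.91, 8.36 and 7.62 in FVF+, against 12.78, 12 and 12.33 in FVF- (-4.41 ± 0.38). The complement genes C1qb (-3.47 ± 0.39) and C1qc (-3.16 ± 0.28), the mannose receptor Mrc1 (-3.38 ± 0.30), Cd53 (-3.24 ± 0.18) and Fcer1g (-3.18 ± 0.28) followed, while C1qa (-0.39 ± 0.25) and Cd14 (0.05 ± 0.11) were not called. Cd3e, a T-cell receptor chain gene, was higher in FVF+, with 9.18, 9.56 and 9.49 against 8.01, 8.42 and 8.27 in FVF- (1.18 ± 0.12).

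Of 18 mast cell, granulocyte and platelet genes, 12 were lower, 1 was higher and 5 were not called, with a median of -1.33. Cpa3 read 6.78, 6.81 and 6.64 in FVF+, against 12.06, 12.05 and 12.17 in FVF-, the largest negative difference of any gene (adjusted p = 1.3e-09). The neutrophil granule genes Ngp (-3.37 ± 0.25), S100a8 (-2.47 ± 0.20) and S100a9 (-2.22 ± 0.19), the platelet factor Pf4 (-2.52 ± 0.19) and Hdc, which makes histamine (-2.11 ± 0.16), were lower. The mast cell receptor chain gene Fcer1a was dim in both fractions (0.09 ± 0.09), and Kit, a receptor of mast cells and other progenitors, was higher in FVF+ (0.98 ± 0.10).

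Of 12 red blood cell genes, 9 were lower, 2 were higher and 1 was not called, with a median of -0.62. Alas2, which begins haem synthesis in red cells, read 8.22, 8.36 and 8.58 in FVF+, against 11.86, 11.75 and 11.2 in FVF- (-3.22 ± 0.15). The anion exchanger Slc4a1 differed by -2.11 ± 0.24. Embryonic globins, which share sequence among themselves, varied between FVF- arrays: Hbb-y read 8.43, 8.64 and 7.52 in FVF+ and 9.94, 11.86 and 11.13 in FVF- (-2.78 ± 0.67), and Hba-x differed by -2.11 ± 0.48. The transferrin receptor Tfrc (2.07 ± 0.20) and Epb42 (1.35 ± 0.26) were higher in FVF+.

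Genes of nerve and glia were found on both sides. Of 19, 10 were lower, 6 were higher and 3 were not called, with a median of -0.36. Fabp7, a fatty acid binding protein of glial precursors, read 7.09, 7.06 and 7.2 in FVF+, against 11.88, 12.28 and 11.7 in FVF- (-4.84 ± 0.36). Stmn2, a neuronal growth protein (-3.98 ± 0.20), Hand2 (-2.64 ± 0.25), the neurturin receptor Gfra2 (-2.23 ± 0.18), the neurotrophin receptor Ngfr (-1.66 ± 0.15) and the peripheral filament gene Prph (-1.43 ± 0.15) were lower too. Ret, the receptor tyrosine kinase for GDNF ligands, was higher in FVF+, with 11.43, 11.49 and 11.36 against 8.89, 9.32 and 9.5 in FVF- (2.19 ± 0.15). So were the coreceptors Gfra3 (1.47 ± 0.19) and Gfra1 (0.71 ± 0.11), the neuregulin receptor Erbb3 (2.03 ± 0.16), the tyrosine hydroxylase gene Th (1.26 ± 0.23) and S100b (0.75 ± 0.15).

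Markers of neighbouring organs gave no common direction: of 23, 6 were higher, 3 were lower and 14 were not called, with a median of 0.17. Serpina6, the corticosteroid-binding globulin gene, was strong in FVF+, with 14.34, 14.41 and 14.27 against 10.89, 12.28 and 12.77 in FVF- (2.36 ± 0.43). Serpina1c, of a family of near-identical antitrypsin genes, differed by 4.14 ± 0.50, Afp by 2.29 ± 0.20 and Vil1, the villin gene, by 2.05 ± 0.17. Alb, the albumin gene of liver, read 8.37, 10.04 and 8.18 in FVF+, against 6.69, 7.78 and 6.64 in FVF-, with replicate 2 highest in both fractions. The intestinal factor Cdx2 (0.26 ± 0.11) and the liver genes Apoa1 (0.34 ± 0.16) and Ahsg (0.30 ± 0.14) did not pass. Tlx1, the factor of spleen, was lower in FVF+, with 8.0, 7.93 and 8.12 against 11.42, 10.76 and 10.62 in FVF- (-2.92 ± 0.25). Nkx2-5 differed by -0.99 ± 0.19. The transferrin gene Trf was also lower, with a difference between those of Tlx1 and Nkx2-5.

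Signalling genes were examined pathway by pathway, since ligands and receptors of 1 pathway can stand in different fractions. For fibroblast growth factors, 5 of 17 genes were higher and 10 were lower. The receptor gene Fgfr2, whose epithelial form binds Fgf7 and Fgf10, read 11.7, 11.1 and 11.23 in FVF+, against 9.56, 9.18 and 8.96 in FVF- (2.11 ± 0.25). Fgf10, which mesenchyme makes to keep progenitors growing, stood the other way round, with 6.97, 6.45 and 6.96 in FVF+, against 9.02, 9.38 and 9.19 in FVF- (-2.40 ± 0.22). Fgfr4 (2.21 ± 0.28) and its coreceptor Klb (2.07 ± 0.15) were higher, Fgf18 (-2.22 ± 0.18), Fgf2 (-1.35 ± 0.14), Fgf7 (-0.56 ± 0.10) and Fgfr1 (-0.74 ± 0.10) were lower. Among feedback targets, Spry4 (-2.56 ± 0.14), Spry1 (-1.54 ± 0.12) and Spry2 (-1.32 ± 0.15) were lower, while Etv5 was higher (0.74 ± 0.19) and Etv4 was not called (-0.18 ± 0.13).

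For platelet-derived and vascular growth factors, 11 of 15 genes were lower and 1 was higher. Vegfa, the main attractant of vessels, was the higher one, with 11.84, 11.16 and 11.49 in FVF+ and 11.03, 10.45 and 10.67 in FVF- (0.78 ± 0.22, adjusted p = 0.0071). The arrays of the fractions did not overlap, although by a narrow margin. Its receptors Kdr and Flt1 (-2.16 ± 0.24) and the related ligands Vegfd (-3.01 ± 0.23) and Vegfc (-1.54 ± 0.14) were lower. The mesenchymal receptor Pdgfra read 8.12, 8.32 and 7.94 in FVF+, against 11.8, 12.07 and 12.03 in FVF- (-3.84 ± 0.33), while its ligand Pdgfa was not called (0.15 ± 0.16).

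The epidermal growth factor family split evenly, with 5 of 13 higher, 6 lower and a median of -0.01. Erbb3 read 11.24, 11.47 and 11.23 in FVF+, against 9.23, 9.54 and 9.08 in FVF-, and its ligand Nrg1 was lower in FVF+ (-1.82 ± 0.16). Egfr (-1.79 ± 0.16) and Erbb2 (-0.91 ± 0.12) were lower, whereas the ligands Egf (0.77 ± 0.13) and Tgfa (0.68 ± 0.15) and the receptor Erbb4 (0.75 ± 0.14) were higher. Btc, betacellulin, was not called (0.11 ± 0.10).

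Notch signalling restrains endocrine differentiation. Of its 22 genes, 3 were higher, 9 were lower and 10 were not called, with a median of -0.08. Dll1, the ligand that Neurog3 switches on, read 10.19, 10.25 and 10.17 in FVF+, against 8.53, 8.56 and 8.45 in FVF- (1.69 ± 0.17). Hes6 (1.28 ± 0.15), also a target of Neurog3, and the ubiquitin ligase Mib1 (0.80 ± 0.21) were the others higher. Notch1 was not called, with 12.42, 12.29 and 12.19 in FVF+ and 12.47, 12.22 and 12.32 in FVF- (-0.04 ± 0.12), whereas Notch3 (-1.91 ± 0.14), Notch4 (-0.97 ± 0.14) and Notch2 (-0.88 ± 0.13), which serve vessels and their pericytes among other cells, were lower. The targets Hey2 (-3.34 ± 0.21), Hey1 (-1.51 ± 0.17) and Heyl (-1.46 ± 0.17) and the ligand Jag1 (-0.94 ± 0.12) were lower, and Nrarp was not called (-0.13 ± 0.18).

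Of 34 Wnt genes, 6 were higher and 19 were lower, with a median of -0.66. Higher in FVF+ were the R-spondin receptors Lgr4 (1.67 ± 0.13) and Lgr5 (1.41 ± 0.17), the ligand Wnt7b (1.27 ± 0.18) and the receptors Fzd3 (1.23 ± 0.17), Fzd6 (1.03 ± 0.15) and Fzd5 (0.77 ± 0.09). The R-spondins themselves were lower: Rspo3 read 7.17, 7.17 and 7.25 in FVF+, against 9.17, 8.81 and 9.02 in FVF-, and Rspo1 differed by -1.76 ± 0.16. The secreted inhibitors Sfrp2 (-3.95 ± 0.23) and Sfrp1 (-3.89 ± 0.38), the ligands Wnt2b (-3.51 ± 0.18) and Wnt5a (-2.68 ± 0.28) and the receptors Ror1 (-2.43 ± 0.14) and Fzd2 (-1.93 ± 0.11) were lower. The pathway targets Axin2 (-0.75 ± 0.11) and Lef1 (-0.98 ± 0.15) were lower as well, and were named after their values were seen.

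**Figure D4:**
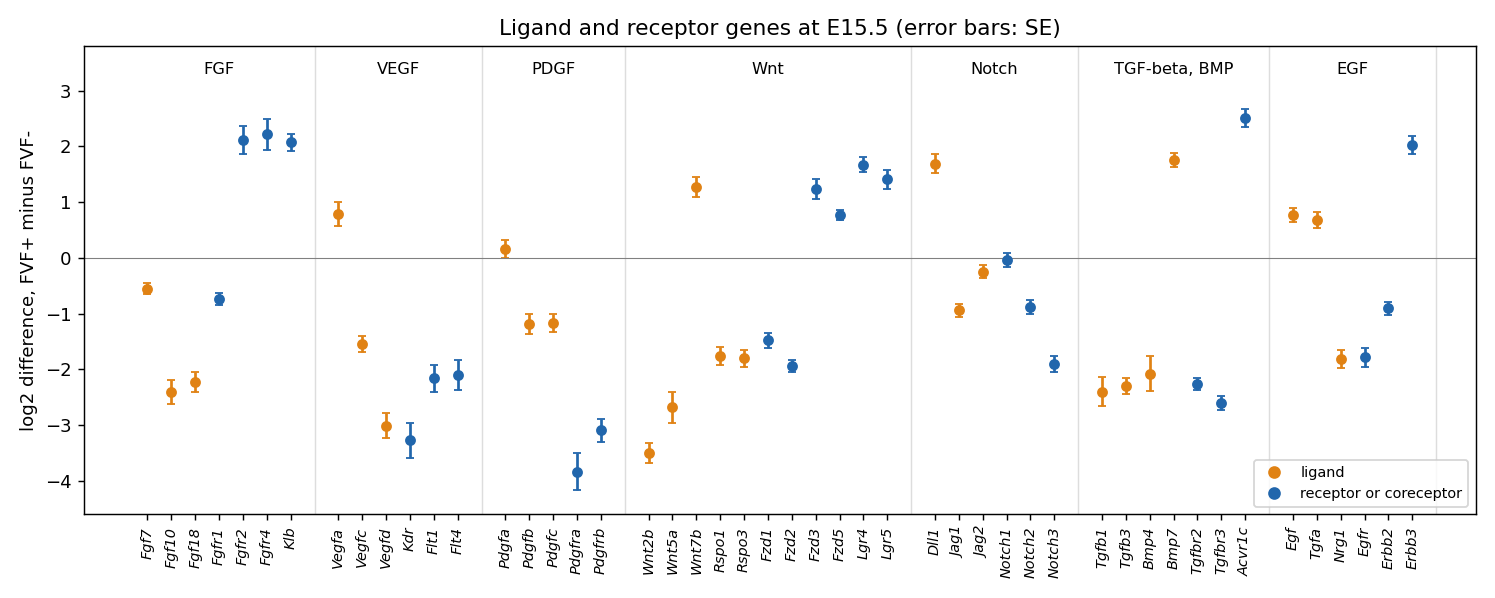
Log2 difference at E15.5, FVF+ minus FVF- (y axis), with SE as error bars (n = 3 arrays per fraction), of ligand genes (orange) and receptor or coreceptor genes (blue) of 7 pathways. Fgf10 and the R-spondins lie below 0 with Fgfr2, Lgr4 and Lgr5 above it, and Vegfa lies above 0 with Kdr and Flt1 below.

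In the Hedgehog pathway, 7 of 12 genes were lower and 3 were higher. The receptor Ptch1 (1.02 ± 0.11) and the decoy Hhip (1.17 ± 0.23) were higher, while the coreceptors Boc (-3.22 ± 0.22) and Gas1 (-2.24 ± 0.15) and the effectors Gli3 (-2.90 ± 0.14), Gli2 (-1.74 ± 0.20) and Gli1 (-0.90 ± 0.11) were lower. The ligand Ihh was not called (0.12 ± 0.10). Shh was called at 0.28 ± 0.10, and the call was lost without any 1 of 5 arrays (adjusted p of 0.0600 to 0.149).

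Of 31 genes of TGF-beta and BMP signalling, 7 were higher, 16 were lower and 8 were not called, with a median of -0.46. Acvr1c, the receptor ALK7, read 9.18, 9.23 and 9.15 in FVF+, against 6.53, 6.77 and 6.72 in FVF- (2.51 ± 0.16), and Bmp7 (1.76 ± 0.13) and Inha (0.94 ± 0.11) were the higher ligand genes by size. Tgfbr3 (-2.61 ± 0.13) and Tgfbr2 (-2.27 ± 0.10), receptors of TGF-beta, and the ligands Tgfb1 (-2.40 ± 0.25), Tgfb3 (-2.30 ± 0.14), Bmp4 (-2.08 ± 0.32) and Bmp5 (-1.97 ± 0.20) were lower. The type I receptor Tgfbr1 was not called (-0.35 ± 0.19).

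Chemokine genes were lower in 14 of 20 and higher in 1, with a median of -1.17. Cxcl13, which draws B cells, read 8.17, 7.77 and 8.36 in FVF+, against 12.39, 12.37 and 12.42 in FVF- (-4.29 ± 0.27). Ccl3, a macrophage chemokine, differed by -2.38 ± 0.41 but varied between arrays, with 6.59, 7.29 and 7.51 in FVF+, against 8.46, 9.31 and 10.76 in FVF-. Cx3cl1, fractalkine, was the higher one (0.86 ± 0.15), and its receptor Cx3cr1 was lower (-2.04 ± 0.22).

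Retinoic acid genes were unevenly placed, with 3 of 17 higher, 10 lower and a median of -0.58. Rbp4, the carrier of retinol, averaged 12.37 ± 0.12 in FVF+ and 8.55 ± 0.36 in FVF- (SD, n = 3 each), a difference of 3.82 ± 0.23. Of the dehydrogenases that make retinoic acid, Aldh1a1 was higher (2.81 ± 0.16) and Aldh1a2 lower, and Rdh10, which acts a step earlier, was lower (-1.91 ± 0.16). Among receptors, Rxrg was higher (1.15 ± 0.16) and Rarb (-2.85 ± 0.12), Rara (-1.04 ± 0.10) and Rarg (-1.0 ± 0.14) were lower, as was the binding protein Crabp1 (-3.04 ± 0.19).

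Few cell cycle genes were called. Of 31 genes, 3 were higher, 5 were lower and 23 were not called, a share of calls below the 43.9% of all genes, and the median was -0.02. With the replicate number as a block on the E15.5 arrays alone, 8 were lower. Mki67, the proliferation marker, read 12.13, 12.02 and 12.13 in FVF+ and 12.04, 12.03 and 12.27 in FVF- (-0.02 ± 0.21). Cdkn1c, the imprinted inhibitor p57, was the exception in size, with 10.56, 10.7 and 10.62 in FVF+, against 13.26, 13.28 and 13.12 in FVF- (-2.59 ± 0.13). The cyclin genes Ccnd3 (-1.12 ± 0.12) and Ccne1 (-0.84 ± 0.13) were lower, and Rrm2, of nucleotide synthesis, was higher (0.74 ± 0.14). Mki67 was named after its values were seen.

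Immediate early genes, which answer handling and dissociation within minutes, were widely spread among the arrays of each fraction. Fos read 8.43, 9.97 and 11.4 in FVF+ and 9.08, 10.24 and 11.49 in FVF- (-0.34 ± 0.61, adjusted p = 0.69). Egr1 read 11.18, 11.63 and 12.3 in FVF+ and 11.7, 11.96 and 12.41 in FVF-. In both fractions replicate 1 was lowest and replicate 3 highest, and at each number the FVF+ array read below the FVF- array for both genes. The list of 20 measured genes also holds heat shock genes, among them Hspb1. Over these 20 genes the mean signal was 9.48, 9.86 and 10.72 in FVF+ and 10.05, 10.20 and 10.76 in FVF-. Of the 20, 1 was higher (Btg2, an antiproliferative gene, 1.60 ± 0.28), 5 were lower and 14 were not called. The lower calls numbered 10 with the replicate number as a block on the E15.5 arrays alone, and 9 without FVF+ replicate 3. Klf4 (-1.68 ± 0.17), Klf6 (-1.19 ± 0.20), Hspb1 (-0.91 ± 0.20) and Fosl2 (-0.75 ± 0.11) were among the lower ones. Dusp1 was called at -1.62 ± 0.40, and the value was -1.02 without FVF+ replicate 1. Fos and Egr1 were named after their values were seen.

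The E15.5 difference was then set against the mean difference of the 3 earlier days by an interaction term in the same fit. For 3069 genes (15.9%) the E15.5 difference was unlike the earlier mean, more positive for 1537 (7.97%) and more negative for 1532 (7.94%). Against E14.5 alone, 676 genes (3.5%) differed, 280 (1.45%) more positive and 396 (2.05%) more negative. Both counts depend on single arrays: without FVF- replicate 3 they were 1997 and 230, and the count against E14.5 was 241 without FVF+ replicate 1 and 394 without FVF- replicate 2. Of the 8478 genes called at E15.5, 672 had an earlier mean difference of the opposite sign and a called interaction. The earlier mean was counted by its sign alone, whatever its size, and was not tested against 0.

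**Figure D5:**
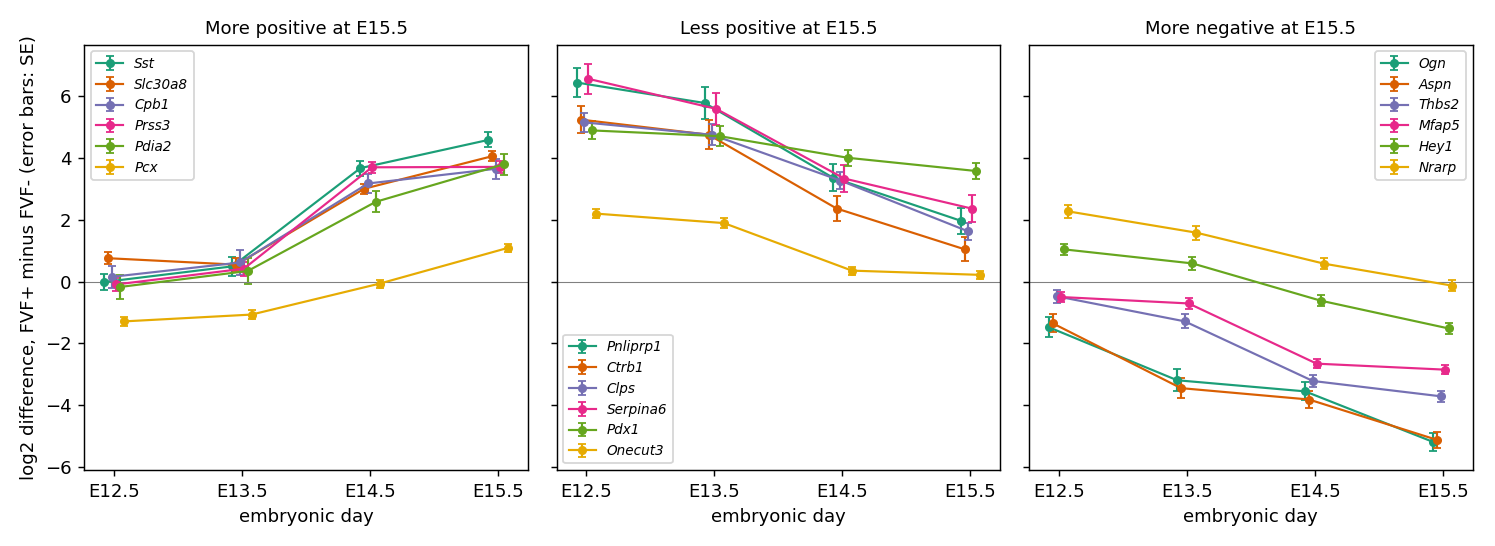
Log2 difference, FVF+ minus FVF- (y axis), with SE as error bars, on each embryonic day (x axis) for genes whose E15.5 difference was more positive than on earlier days, less positive, or more negative. Sst stood at -0.01 at E12.5 and 4.59 at E15.5, Ctrb1 at 5.24 and 1.05, and Ogn at -1.48 and -5.19.

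The Sst difference was -0.01, 0.49, 3.67 and 4.59 on the 4 days from E12.5 to E15.5, an interaction of 3.20 ± 0.29 (adjusted p = 3.7e-06). It did not pass against E14.5 alone (0.91, adjusted p = 0.13 by limma). Slc30a8 had 0.76, 0.55, 3.01 and 4.06 on the same days (2.62 ± 0.20). In FVF+ the Slc30a8 mean was 9.36 at E14.5 and 10.65 at E15.5, and in FVF- it was 6.35 and 6.59, so the change lay in FVF+, and it passed against E14.5 alone (1.05, adjusted p = 0.024). Against the mean of the earlier days, 4 of 7 hormones were more positive and none more negative. Among granule genes it was 9 of 23 and none, and among glucose sensing genes 6 of 10 and 1. The more negative gene was Slc2a2, with 4.41, 4.04, 2.07 and 2.55 on the 4 days. Against E14.5 alone, none of the hormones, 1 of 23 granule genes and 2 of 10 glucose sensing genes were more positive, and none was more negative. Pcx changed its sign, with -1.29, -1.06, -0.06 and 1.09 (1.90 ± 0.15), and so did Isl1, with -0.34, -0.47, 1.42 and 1.35 (1.15 ± 0.26).

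Acinar enzyme genes moved both ways against the mean of the earlier days: 13 of 27 were more positive at E15.5 and 5 were more negative. The counts against E14.5 alone were 1 and 3. Cpb1 (2.34 ± 0.38), Rnase1 (2.49 ± 0.43) and Prss3 (2.37 ± 0.22) were more positive, as was the water channel gene Aqp8 (2.33 ± 0.33), which was in none of the lists. None of these genes passed against E14.5 alone, and the Prss3 difference was 3.70 at E14.5 and 3.71 at E15.5. The FVF+ mean of Cpb1 was 10.17 at E14.5 and 12.36 at E15.5, and its FVF- mean was 6.99 and 8.71. Pnliprp1 (-3.23 ± 0.51), Ctrb1 (-3.08 ± 0.47), Clps (-2.77 ± 0.33) and Cpa1 (-1.23 ± 0.28) were less positive. Of these, Clps passed against E14.5 alone (-1.65, adjusted p = 0.029 by limma), and Pnliprp1 and Ctrb1 did not. In FVF+ the mean of Ctrb1 was 13.70 at E12.5 and 14.92 at E15.5, while in FVF- it was 8.46, 9.38, 12.51 and 13.88 over the 4 days. Clps in FVF- had means of 9.25, 9.80, 11.62 and 13.24 over the 4 days. Serpina6 behaved likewise, with 7.46, 8.25, 10.97 and 11.98 in FVF- and 14.02 to 14.34 in FVF+ at E12.5 and E15.5 (-2.80 ± 0.51). The FVF+ means of Ctrb1, Clps and Serpina6 at E15.5 were 14.92, 14.87 and 14.34, and the highest value in the table was 15.31. Whether signals level off near that value was not tested, nor was the course within either fraction.

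The ER genes moved in 1 direction only: 16 of 30 were more positive at E15.5 than before and none was more negative, against 7.97% of all genes that were more positive. Against E14.5 alone it was 6 of 30 and none. Pdia2 had -0.17, 0.34, 2.58 and 3.8 over the 4 days (2.88 ± 0.41). Herpud1 had -0.05, -0.01, 0.43 and 1.22 (1.10 ± 0.18) and Sel1l 0.48, 0.04, 0.57 and 1.27 (0.90 ± 0.11). The FVF+ mean of Herpud1 was 12.26 at E14.5 and 13.04 at E15.5, and its FVF- mean was 11.83 and 11.82.

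Progenitor and Notch genes went the other way against the mean of the earlier days. Of 17 progenitor factors 5 were less positive and none more positive, and none of the 17 differed from E14.5 alone. Onecut3 had 2.20, 1.90, 0.36 and 0.22 (-1.26 ± 0.16) and Pdx1 4.89, 4.71, 4.01 and 3.58 (-0.95 ± 0.31, adjusted p = 0.045). For Gata6 the change lay on both sides, with 12.57 in FVF+ and 11.38 in FVF- at E12.5, and 12.10 and 12.15 at E15.5 (-0.75 ± 0.11). Of 22 Notch genes 8 were more negative and 1 more positive, while against E14.5 alone 1 was more negative and 1 more positive. Hey1 had 1.04, 0.59, -0.61 and -1.51 (-1.85 ± 0.20) and Nrarp, a direct Notch target, 2.27, 1.58, 0.58 and -0.13 (-1.61 ± 0.22), so both had a positive difference at E12.5, and at E15.5 that of Hey1 was negative while that of Nrarp was not called. Notch1 had 1.31, 0.80, -0.04 and -0.04 (-0.73 ± 0.15).

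In the stroma, 12 of 38 matrix genes were more negative at E15.5 and 1 was more positive. Relative to E14.5 alone, 2 were more negative and 0 more positive. Ogn had -1.48, -3.19, -3.55 and -5.19 (-2.45 ± 0.34), and its FVF- mean was 8.20, 10.41, 10.60 and 11.64 while its FVF+ mean was 6.45 to 7.22. Aspn (-2.25 ± 0.31) and the angiotensin receptor gene Agtr2 (-2.12 ± 0.40) were also more negative than on the earlier days. Agtr2 had -0.55, -2.22, -4.21 and -4.45. Against E14.5 alone Ogn passed (-1.64, adjusted p = 0.037 by limma), while Aspn (0.056) and Agtr2 (0.82) did not. Outside the matrix list, Fabp7 (-2.06 ± 0.43) and Cxcl13 (-1.69 ± 0.32) were more negative too. The FVF+ mean of Fabp7 was 8.67 at E14.5 and 7.12 at E15.5, and its FVF- mean was 11.40 and 11.95. Of 28 mesenchymal transcription factors, 2 were more positive and 2 more negative, and Prrx1 stood at -3.67, -3.52, -3.84 and -3.95 over the 4 days.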

How the data were processed

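Total RNA of sorted cells was labelled for Affymetrix arrays with the Ambion WT Expression kit, per the labels' protocols. The deposited values are log2 signals per probe set that the authors made by RMA with affy 1.44.0, per the submitters' processing notes; the probe set definition was not given in the sources used here. Of 23305 probe sets, 20728 had 1 gene symbol, 1174 several and 1403 none. The probe set with the highest mean was used for the 804 genes with several, which left 19296 genes, and near-identical gene copies may share probe sets. The medians of the E15.5 arrays lay between 8.7 and 8.79, and precision is limited by how few arrays there are. Differences were fitted with limma 3.58.1 in R 4.3.3 as the means of 8 groups over all 21 arrays, with 13 residual degrees of freedom and Benjamini-Hochberg adjustment over all genes at 0.05, and the fit was tested on simulated data. The genes named are Foxa2, the 15 largest differences in each direction without overlap between arrays, from each of 32 gene lists up to 6 called members in each direction and up to 3 not called, with every member of the lists of 12 or fewer, any ligand or receptor, and the 8 largest interactions in each direction. Members and lists were chosen with earlier results of these data known. No pairing of replicate numbers between the fractions is stated, so they were not taken as pairs. After removal of group means, arrays of the same number correlated at 0.204, 0.139 and 0.077. Those of different numbers correlated at -0.163 to 0.028. Alternatives changed the threshold, the choice of probe sets, a filter on dim genes, the normalization, the moderation, array weights, the arrays in the fit, a replicate block, and left out each E15.5 array in turn.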

Additional observations from a re-analysis of the deposited data

Results flagged for a closer look

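The FVF+ minus FVF- difference at E15.5 differed from that of the earlier days by limma's interaction test for 3069 genes. The most positive of these were Sst (3.20), Hsd3b6 (3.10), Pdia2 (2.88), Slc30a8 (2.62), Rnase1 (2.49), Prss3 (2.37), Cpb1 (2.34) and Aqp8 (2.33). The most negative were Hmgn5 (-3.34), Pnliprp1 (-3.23), Ctrb1 (-3.08), Zfp985 (-2.96), Serpina6 (-2.80), Clps (-2.77), Zfp141 (-2.65) and Esf1 (-2.47). Hsd3b6, a steroid dehydrogenase gene, had differences of -3.48, -4.46, -2.70 and -0.44 on the 4 days from E12.5 on. The last of these did not pass the test (adjusted p = 0.45 by limma).

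By list, 13 acinar enzyme genes were more positive at E15.5 than before and 5 were more negative. Of the ER genes 16 were more positive and 0 more negative, and of the fibroblast matrix genes 1 was more positive and 12 were more negative. With E14.5 alone as the reference, 1 acinar enzyme gene was more positive and 3 were more negative. For ER genes these counts were 6 and 0, and for fibroblast matrix genes 0 and 2.

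Against E14.5 alone the interaction was called for 676 genes. The most positive were Tbxas1 (1.67), Slc26a9 (1.60), Ntsr1 (1.57), Stra6 (1.34), Hoxb5 (1.18), Dlx2 (1.17), Pcx (1.15) and Minar2 (1.15). Among these, Ntsr1, Stra6, Hoxb5, Dlx2 and Minar2 were lower in FVF+ on both days, and their differences were less negative at E15.5. The most negative were Hmgn5 (-3.60), Zfp141 (-2.89), Scoc (-2.84), Ly96 (-2.66), Zfp985 (-2.62), Zfp931 (-2.46), Esf1 (-2.44) and Cenpq (-2.42). Slc26a9, an anion transporter gene of epithelia, read 11.9, 11.41 and 11.7 in FVF+ and 7.7, 8.08 and 8.51 in FVF- at E15.5, with a difference of 1.98 at E14.5 and 3.57 at E15.5. Hmgn5, a nucleosome binding protein gene, had a difference of 2.84 at E14.5 and -0.76 at E15.5, with 7.22, 7.46 and 8.07 in FVF+ and 8.29, 8.26 and 8.47 in FVF- on the later day. Zfp985, Zfp141 and Zfp931 are zinc finger genes of families with near-identical copies, so their probe sets may not separate them. The call against E14.5 was lost on leaving out any 1 of the 6 arrays for Esf1 (adjusted p by limma 0.0585 to 0.0974), 5 of the 6 for Ly96 (0.0582 to 0.09), 3 for Zfp141 (0.0502 to 0.0557), 2 for Hmgn5 (0.0606 to 0.0634) and 1 for Slc26a9 (0.0608). The E15.5 difference of Ntsr1, a neurotensin receptor gene, was -0.63 and lost its call without FVF- replicate 2 (adjusted p = 0.114 by limma).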

How the results depend on the processing

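No called value of those named changed its direction under any alternative run. Asking for a 2-fold difference as well left 2599 genes (1081 higher, 1518 lower in FVF+), 537 interactions with the earlier days and 220 with E14.5. It left 11 ER genes and 2 microRNA genes higher. Lower in FVF+ it left 4 red blood cell, 6 FGF, 2 EGF, 4 Notch, 11 Wnt, 4 Hedgehog and 9 TGF-beta and BMP genes. It also left 6 retinoic acid, 2 cell cycle and 3 immediate early or heat shock genes lower. A filter on dim genes, which tested 11407 genes, left 7 lower chemokine genes and 4 higher microRNA genes. Array weights gave 2169 interactions with E14.5, from a fit that did not fully converge. Leaving out each array in turn gave 7501 to 7943 genes called (3968 to 4379 higher, 3460 to 3575 lower), 1997 to 2687 interactions with the earlier days and 230 to 527 with E14.5. It gave 5 to 9 lower immediate early or heat shock genes, 9 of them without FVF+ replicate 3. Replicate numbers are shared by the fractions without a stated pairing, and as deviations from the group means, though not as whole profiles, every array correlated best with its own number, as a hint from the data. With a replicate block on all arrays 8058 genes were called. With the E15.5 arrays alone 8284 were called, and with a replicate block on them 8625. Of the latter, 8 cell cycle and 10 immediate early or heat shock genes were lower. Shh lost its call under the block on all arrays. The threshold and the filter leave fewer genes by their construction, and the cause of the other changes was not tested. Signals near array background limit what dim genes can show.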
